A study of Mus musculus with 21 samples.

Results

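The 48 genes described here are interferon response genes, a module of transcripts that cells make after interferon binds its receptor. They were chosen by name: each is a row of the deposited count table whose Ensembl gene identifier, without its version, carries 1 of the 48 listed mouse symbols. All 48 were found among the 54446 identifiers of the table, and all 48 were among the 21100 genes that passed the filter on low counts. The libraries came from long-term haematopoietic stem cells (LT-HSC) and the multipotent progenitor classes MPP2 and MPP3 of Phf6 wild-type (WT) and Phf6 knockout (KO) mice. Phf6 encodes a chromatin-associated zinc finger protein. LT-HSC were represented by 2 libraries from WT and 3 from KO mice, and MPP2 and MPP3 by 4 libraries from each genotype. Every group was strain C57BL/6, 12 weeks of age and from bone marrow. The sources used here do not name the knockout allele, the cells in which it was deleted or any allele or agent that both genotypes share. The sort used lineage markers, Sca-1, cKit, CD150 and CD48, Flt3 was not stained, and each library was made from 100 to 200 cells with the Nextera XT kit. The series describes 4 pairs of mice, and libraries are named below by genotype, population and the replicate number of their label. No label ties a library to 1 mouse, so p-values measure the spread between these libraries, and a genotype with a number is taken as a mouse below.

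Type I interferon acts through the receptor chains IFNAR1 and IFNAR2, the kinases JAK1 and TYK2, and a complex that holds STAT2 and IRF9 and binds an interferon-stimulated response element (ISRE) in the promoters of target genes. Type II interferon acts through IFNGR1 and IFNGR2 and leads to binding at a gamma-activated site (GAS). The target genes encode antiviral proteins, sensors of foreign nucleic acid and regulators that either amplify the response, such as IRF7, or restrain it, such as USP18. In bone marrow, interferon is known to draw quiescent stem cells into cycle, and stem cells are known to hold some interferon-stimulated transcripts at rest.

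Library totals ran from 18892723 to 31611366 counts, so that 3 counts, taken as the limit of detection, correspond to 0.0985 to 0.194 CPM, the unit of counts scaled to a common library size. Levels below are CPM scaled with TMM factors, or RPKM, which also divides by exon length, where genes are compared. The targeted gene followed the labels: Phf6 was at 54.4 to 210 CPM in the 10 WT libraries and at 2.45 to 13.3 CPM in the 11 KO libraries. The 9 markers of LT-HSC summed to 1410 to 1839 CPM in LT-HSC and to 416 to 2054 CPM in MPP2 and MPP3, with the highest value in KO MPP2 1. Most of the sum in KO MPP2 1 came from Ly6a, with 22132 counts, and Kit was next with 4557. Procr had 140 counts there, Fgd5 11 and Hoxb5 0. The 6 markers of other progenitors summed to 134 to 236 CPM in LT-HSC and to 998 to 4891 CPM in MPP2 and MPP3. In 3 KO libraries a single gene took over 5% of all counts: 19.8% for Igkc in KO MPP2 1, 11.4% for Igkc in KO MPP3 1 and 10.3% for CT010467.1 in KO MPP3 2. The 6 markers of B and plasma cells summed to 45109 CPM in KO MPP2 1, 13243 CPM in KO MPP3 1 and 10195 CPM in WT MPP2 1. Jchain, 1 of the 6, also had 68313 counts in WT MPP2 2 and 25665 in KO MPP2 2, against 0 to 25 in the MPP2 libraries numbered 3 and 4. WT MPP2 1, WT MPP2 2 and KO MPP2 2 are kept in the values given without the 3 KO libraries. The 7 neutrophil markers summed to 14787 CPM in KO MPP2 1, 4489 CPM in WT LT-HSC 2 and 1784 CPM in WT MPP3 1, and to at most 296 CPM in the other libraries. For many of the main counts and medians that use KO MPP2 1, KO MPP3 1 or KO MPP3 2, values without them are also given below. In pooled cells, fewer cells of a type and less RNA per cell cannot be told apart.

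Promoter sequence was read from RefSeq (GRCm38.p6) for 37 of the 48 genes, in windows of 250 bases before to 50 bases after each start. The other 11, the GTPase gene Iigp1 among them, had no window in the set used here. That set does not hold all genes, and the shares below are of genes with a window in it. The letters GAAANNGAAA or, for the other strand, TTTCNNTTTC, a core of the ISRE, were found in the windows of 18 of the 37 genes, or 48.6%, and in 1079 of 27025 genes with a window, or 3.99%. By role they were found in 5 of 6 guanylate binding and immunity-related GTPase genes, 3 of 4 Ifit genes, 3 of 3 nucleic acid sensor genes, 2 of 5 genes of the oligoadenylate synthetase and RNA decay role, 1 of 3 regulators, 1 of 4 genes of the ISG15 system, 3 of 10 other effectors and 0 of 2 ADP-ribosylation genes. The GAS letters TTCNNNGAA, which read the same on both strands, were found in 8 of the 37 genes, or 21.6%, and in 9.55% of the 27025 genes with a window. Overlapping matches were counted apart. The bases before the start are shown for 5 genes on which the values below turn. They are Ifit1 (chr19:34640639-34640888, plus strand), Ifit3 (chr19:34583279-34583528, plus strand), Ifit3b (chr19:34607707-34607956, plus strand), Isg15 (chr4:156200819-156201068, minus strand) and Uba7 (chr9:107975317-107975566, plus strand), each written 5′ to 3′ along the gene with the ISRE letters in capitals.
Ifit1: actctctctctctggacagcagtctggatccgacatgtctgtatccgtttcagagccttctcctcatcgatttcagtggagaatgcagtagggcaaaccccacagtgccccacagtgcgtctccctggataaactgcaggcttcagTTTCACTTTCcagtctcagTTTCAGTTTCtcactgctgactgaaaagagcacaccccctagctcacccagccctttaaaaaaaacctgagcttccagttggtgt
Ifit3: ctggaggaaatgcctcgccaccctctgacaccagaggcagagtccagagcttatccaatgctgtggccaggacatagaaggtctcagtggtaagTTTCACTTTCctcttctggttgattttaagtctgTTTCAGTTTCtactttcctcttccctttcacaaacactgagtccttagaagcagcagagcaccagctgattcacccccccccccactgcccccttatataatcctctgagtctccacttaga
Ifit3b: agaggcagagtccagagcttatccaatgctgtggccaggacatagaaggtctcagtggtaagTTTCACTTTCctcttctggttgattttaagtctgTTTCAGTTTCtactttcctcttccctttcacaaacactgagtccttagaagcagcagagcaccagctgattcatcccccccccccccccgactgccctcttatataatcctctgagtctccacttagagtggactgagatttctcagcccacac
Isg15: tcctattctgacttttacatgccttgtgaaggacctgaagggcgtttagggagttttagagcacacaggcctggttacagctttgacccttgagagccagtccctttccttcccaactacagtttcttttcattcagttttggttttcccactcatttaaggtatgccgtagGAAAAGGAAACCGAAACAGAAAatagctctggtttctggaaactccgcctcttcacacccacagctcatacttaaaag
Uba7: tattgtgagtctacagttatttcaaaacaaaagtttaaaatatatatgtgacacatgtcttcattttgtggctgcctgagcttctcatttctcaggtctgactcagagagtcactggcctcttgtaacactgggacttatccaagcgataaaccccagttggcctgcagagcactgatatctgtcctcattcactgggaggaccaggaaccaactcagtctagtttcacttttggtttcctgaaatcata
The Ifit1, Ifit3 and Ifit3b windows hold the same pair of matches, and much of the Ifit3 and Ifit3b windows is alike. Reads from these near-identical genes may have been split between them, so their single values are uncertain, as are those of Gbp3 and Gbp7, Oas1a, Oasl1 and Oasl2, and Trim30a, which have close copies. The 3 overlapping matches of Isg15 form a single run. The Uba7 window holds 0 exact matches. A match is a description of letters and not evidence of binding.

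Per length of exon, the most abundant of the 48 genes over the 21 libraries was Ifi27, a small membrane protein, at a mean of 122 RPKM. Next were Ifi47, an immunity-related GTPase, at 120 RPKM, Bst2, the tetherin that holds virions at the membrane, at 112 RPKM, Lgals3bp, a secreted galectin ligand, at 99.1 RPKM and Rtp4, a receptor transporter protein, at 98 RPKM. The least abundant were Ifit3b at 0.955 RPKM, Mx2 at 1.96 RPKM, Oas3 at 2.17 RPKM and Mx1 at 2.66 RPKM. Mx1 had 0 counts in 3 libraries and Ifit3b in 5, and the other 46 genes had counts in every library. The SD of log2 CPM within groups, pooled over the 6 groups, had a median of 0.52 over the 48 genes and of 0.49 over the 12355 genes tested with a mean CPM in the same range. It was smallest for Trim25, a ubiquitin and ISG15 ligase, at 0.20, for Bst2 at 0.22 and for Uba7, the E1 enzyme that activates ISG15, at 0.24. It was largest for Mx1, an antiviral dynamin-like GTPase, at 2.27, for Ifit3b at 1.93 and for Ifit3, of the same family, at 1.62. The 48 genes ran from transcripts that were steady between libraries to ones that differed many-fold between libraries of the same group.

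**Figure D1:**
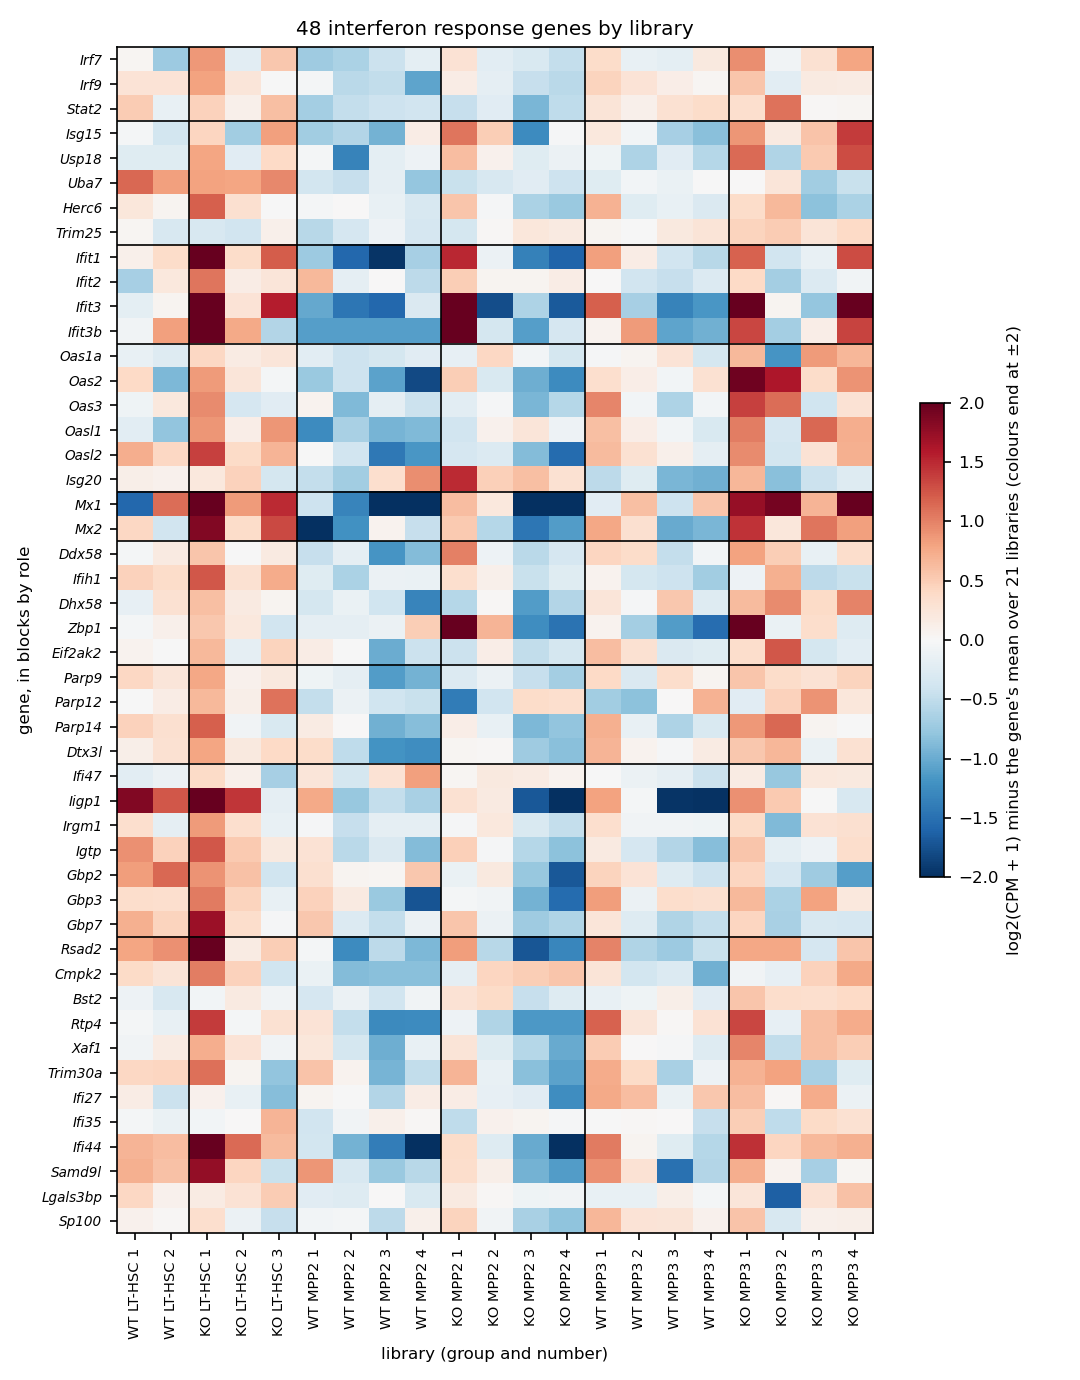
Level of each of the 48 genes (rows, by role) in the 21 libraries (columns, by population and genotype), as log2(CPM + 1) minus the gene's mean over all libraries, with colours that end at 2 and -2. KO LT-HSC 1 is above the mean for most rows, and the MPP2 libraries numbered 3 and 4 are below it for many.

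The first comparison was of KO with WT cells, within each population. By edgeR's quasi-likelihood test with Benjamini-Hochberg adjustment over all genes tested, 0 of the 48 genes passed the threshold of 0.05 in any of the populations. The share of all genes called was 0.00474% for LT-HSC, 0.0142% for MPP2 and 0.00948% for MPP3, so calls were rare throughout. DESeq2 called 0 of the 48 in LT-HSC and MPP3 and 1 in MPP2, Ifit3b, against 28, 38 and 35 of all 21100 genes. At an unadjusted p under 0.05, the genes with higher levels in KO cells numbered 2 (LT-HSC), 6 (MPP2) and 6 (MPP3), against 0.886%, 3.98% and 2.99% of all genes. The genes with lower levels numbered 0 in each, against 1.55%, 2.73% and 2.63% of all genes. The fitted log2 fold change of KO over WT was above 0 for 42 of 48 genes (LT-HSC), 30 (MPP2) and 41 (MPP3), against 50.3%, 51% and 50.5% of all genes. Its median over the 48 genes was 0.29, 0.16 and 0.36, against 0.00, 0.01 and 0.00 over all genes.

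The counts leaned on the KO libraries numbered 1. Where these were left out, the WT libraries numbered 1 were kept. Over the 48 genes, the median log2 deviation from the gene's mean was highest in WT 1 among WT MPP2 (-0.08) and WT MPP3 (0.42) libraries. In WT LT-HSC it was 0.14 in WT 1 and 0.2 in WT 2. Without the KO libraries numbered 1 the fitted values above 0 numbered 28 of 48 (LT-HSC), 26 (MPP2) and 35 (MPP3), and the medians were 0.02, 0.02 and 0.26. Without the 3 libraries in which 1 gene took over 5% of counts they numbered 26 in MPP2 and 34 in MPP3, with medians of 0.02 and 0.27. Within the libraries numbered 1 and 2 the medians came to 0.42 for LT-HSC, 0.27 for MPP2 and 0.25 for MPP3, and within those numbered 3 and 4 they were -0.08 in MPP2 and 0.50 in MPP3. KO LT-HSC 3 had no WT partner by number. Without either set of libraries the edgeR count of called genes was 0 of 48 in each population, and within the numbers no count was made.

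In 26 of the 48 genes the fitted value was above 0 in all 3 populations, as it was for 16.8% of all genes, and in 3 it was above 0 in none, against 16% of all genes. Those 3 were Gbp2, a guanylate binding protein, Ifi27 and Sp100, a scaffold of nuclear bodies. Without the KO libraries numbered 1 the value was above 0 in all populations for 19 genes, and without the 3 libraries in which 1 gene took over 5% of counts for 20, against 16.8% and 16.2% of all genes. The 26 held all 4 Ifit genes, both Mx genes, Isg15, Usp18, Irf7, Ddx58, Ifih1 and Rsad2. The groups did not overlap, with KO higher, for 6 genes in LT-HSC (7.53% of all genes), 1 in MPP2 (1.43%) and 4 in MPP3 (1.07%). With KO lower, they numbered 0 in each, against 10.8%, 1.08% and 1.62% of all genes. The 6 in LT-HSC were Usp18, Ifit3, Oas1a, Oasl1, Bst2 and Rtp4, the 1 in MPP2 was Oasl1, and the 4 in MPP3 were Trim25, Oas2, Mx1 and Bst2. Without the KO libraries numbered 1 the genes with KO higher numbered 7 (LT-HSC), 3 (MPP2) and 4 (MPP3), against 16.6%, 3.89% and 2.39% of all genes, and those with KO lower 10, 0 and 0, against 20.9%, 3.19% and 3.89%. Without the 3 libraries the genes with KO higher numbered 3 in MPP2 and 13 in MPP3 (3.87% and 11.9% of all genes), and those with KO lower 0 and 4 (3.19% and 11.8%).

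**Figure D2:**
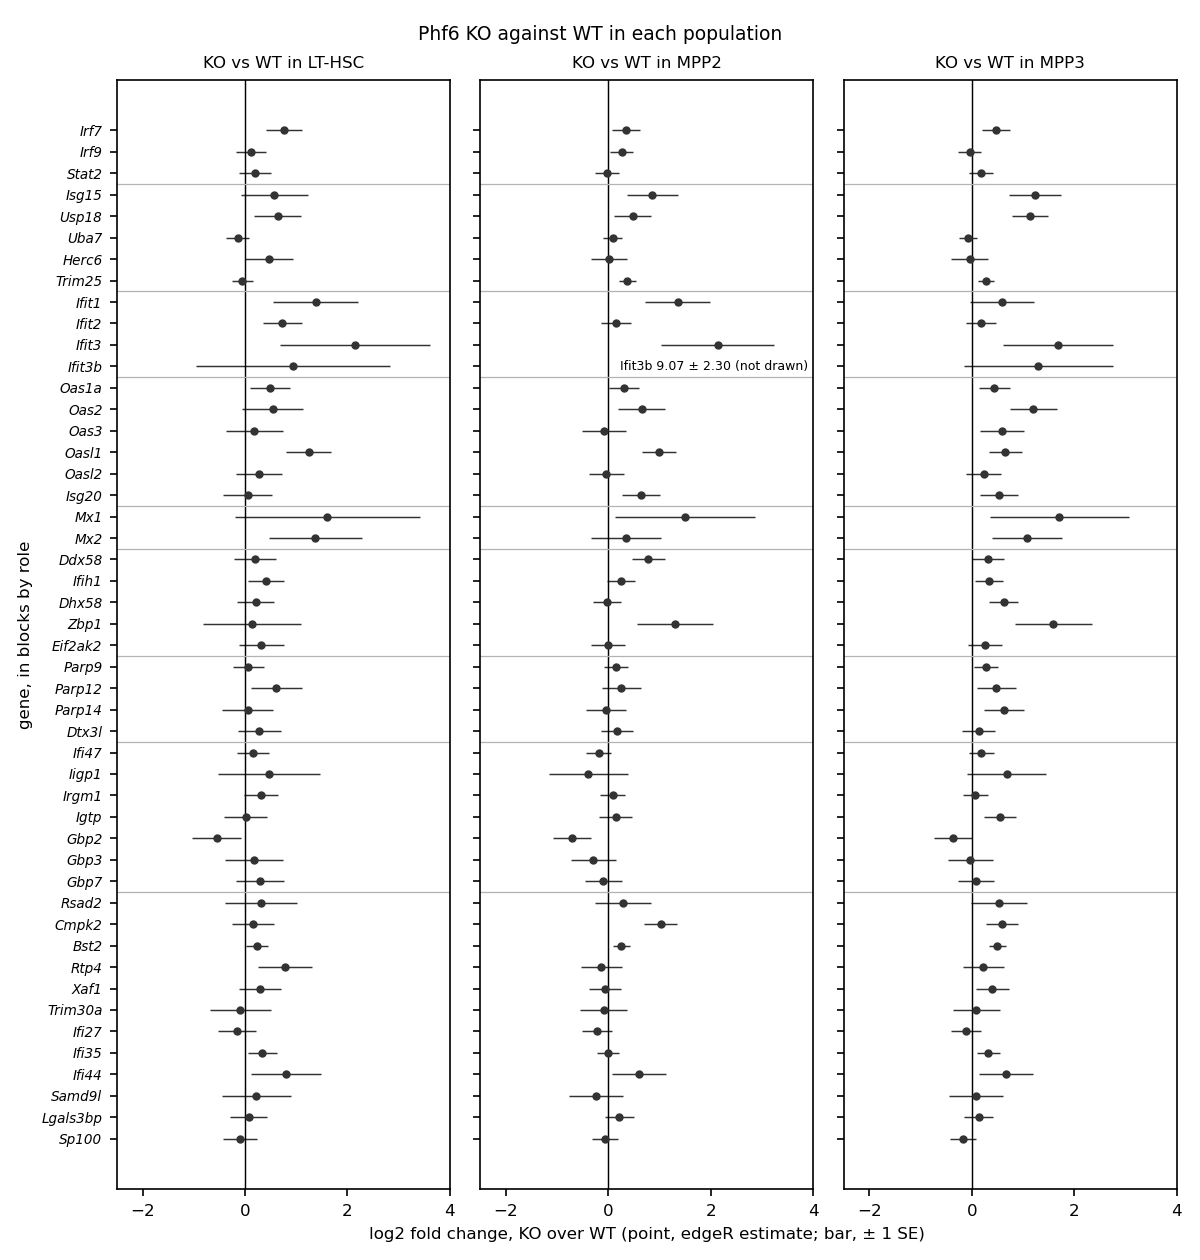
Fitted log2 fold change of KO over WT for each of the 48 genes (rows, by role) in LT-HSC, MPP2 and MPP3, with bars of 1 SE. Most points lie right of 0 in LT-HSC and MPP3, and Ifit3b in MPP2 (9.07 with an SE of 2.30) is not drawn because all WT MPP2 libraries had 0 counts.

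Among the regulators, Irf7 is the factor that amplifies the type I response. In LT-HSC its level was 54.3 and 31.2 CPM in WT libraries 1 and 2, and 96.3, 45.1 and 77.2 CPM in KO libraries 1, 2 and 3. WT 1 lay above KO 2, so the groups overlapped, and the fitted log2 fold change was 0.77 (SE 0.352, adjusted p = 1). In MPP2 it was 31.6, 33.5, 38.8 and 45.9 CPM in WT libraries 1 to 4 and 64.3, 45.4, 42.5 and 37.6 CPM in KO libraries 1 to 4. KO 1 was the highest of the 8 and the rest overlapped. The fitted value was 0.34 (SE 0.267, adjusted p = 0.895), and it was -0.09 within numbers 3 and 4. In MPP3 it was 67.9, 47.2, 45.7 and 60.3 CPM in WT and 101, 50, 64.8 and 91.6 CPM in KO libraries. KO 1 and KO 4 were above every WT library, KO 2 and KO 3 were not, and the fitted value was 0.47 (SE 0.267, adjusted p = 0.923).

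Irf9 and Stat2 encode members of the complex that binds the ISRE. Irf9 was at 158 and 159 CPM in WT LT-HSC and at 229, 155 and 130 CPM in KO LT-HSC. KO 1 was above and the other KO libraries were below both WT libraries, with a fitted log2 fold change of 0.12 that was -0.15 without KO 1. Its MPP2 levels of 128, 89.7, 92.5 and 62.3 CPM in WT and 145, 115, 94.4 and 90.1 CPM in KO libraries overlapped. So did its MPP3 levels of 179, 159, 143 and 135 CPM in WT and 192, 113, 148 and 146 CPM in KO libraries. Stat2 was at 35.7 and 22.3 CPM in WT LT-HSC and at 34.4, 26.7 and 38.2 CPM in KO LT-HSC, which overlapped. In MPP2 the WT libraries were at 15.0, 17.5, 18.3 and 18.7 CPM and the KO libraries at 17.6, 20.9, 12.7 and 17.0 CPM. In MPP3 the WT libraries were at 29.6, 26.6, 30.8 and 32.2 CPM and the KO libraries at 31.4, 53.3, 25.2 and 25.5 CPM, with KO 2 apart from the rest. The fitted values of Irf9 in MPP3 (-0.04) and Stat2 in MPP2 (-0.03) were near 0, and the signs of both genes turned between settings in every population except that of Irf9 in MPP2.

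Isg15 encodes the ubiquitin-like protein that is joined to target proteins, and Usp18 the protease that removes it and also blocks the type I receptor. Isg15 was at 7.45 and 5.74 CPM in WT LT-HSC and 10.7, 4.35 and 14.4 CPM in KO LT-HSC, with KO 2 the lowest of the 5. In MPP2 it was at 4.35, 4.78, 3.51 and 8.68 CPM in WT and 17.3, 11.3, 2.63 and 7.56 CPM in KO libraries. In MPP3 it was at 9.05, 7.35, 4.47 and 3.87 CPM in WT and 15.1, 8.88, 11.9 and 22 CPM in KO libraries. Of the KO MPP3 libraries, 3 were above every WT library and KO 2 was below WT 1. The fitted log2 fold changes came to 0.57 in LT-HSC (SE 0.652), 0.86 in MPP2 (SE 0.502, and -0.27 within numbers 3 and 4) and 1.23 in MPP3 (SE 0.504, adjusted p = 0.88).

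Usp18 was at 37.1 and 37.0 CPM in WT LT-HSC and 77.2, 37.7 and 58.8 CPM in KO LT-HSC, so that every KO library was above both WT libraries, KO 2 by a small margin. The MPP2 levels were 43.1, 16.9, 38.3 and 41.2 CPM in WT and 68.3, 46.9, 37.3 and 40.7 CPM in KO libraries, which overlapped. The MPP3 levels were 41.7, 28.4, 37.5 and 29.3 CPM in WT and 97.9, 28.7, 63.7 and 111 CPM in KO libraries. The KO MPP3 libraries 1, 3 and 4 were above every WT library and KO 2 lay among them. The fitted value in MPP3 was 1.14 (2.20-fold, SE 0.356, adjusted p = 0.88), the smallest p of the 48 genes in that comparison, and it was 0.98 without KO 1. In LT-HSC and MPP2 it was 0.64 (SE 0.462) and 0.47 (SE 0.353, and -0.04 within numbers 3 and 4). Uba7, whose product starts the same conjugation cascade, had fitted values of -0.14, 0.08 and -0.08.

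**Figure D3:**
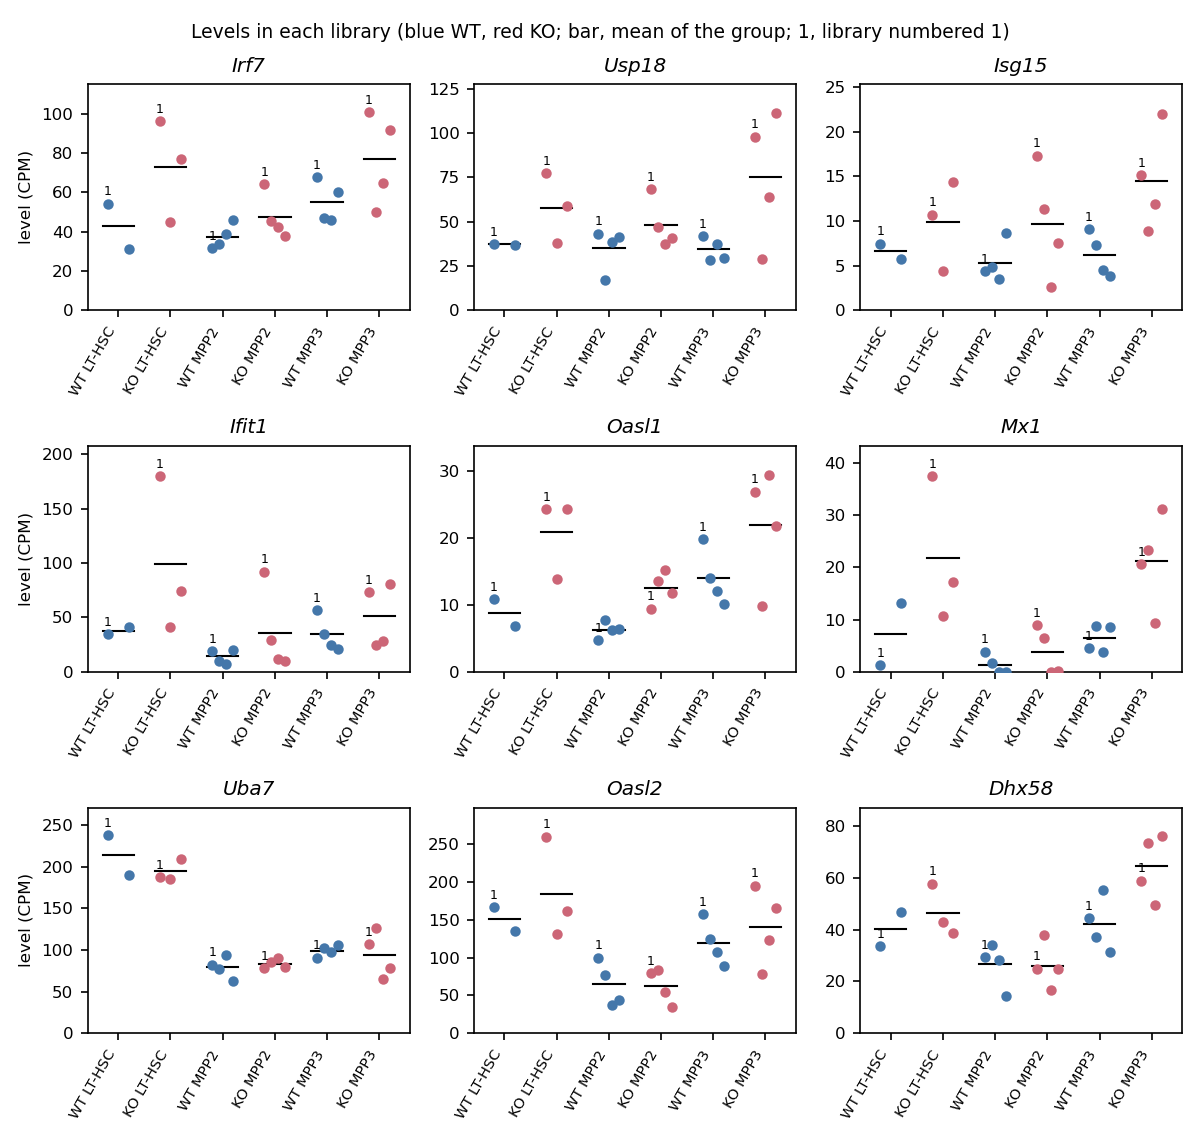
Level in CPM of 9 genes in every library (blue WT, red KO, bar at the group mean, with the libraries numbered 1 marked), by population. Usp18, Isg15, Ifit1 and Oasl1 have wide KO groups that overlap WT in most panels, while Uba7 is high in all 5 LT-HSC libraries of either genotype.

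The Ifit genes encode proteins that bind foreign RNA. Ifit1 was at 34.2 and 41.3 CPM in WT LT-HSC and at 180, 41.2 and 74.5 CPM in KO LT-HSC, with KO 2 between the WT libraries. Among MPP2 libraries it was at 18.8, 10, 7.36 and 19.7 CPM in WT and 91.9, 29.2, 11.8 and 9.73 CPM in KO libraries. Among MPP3 libraries it was at 56.5, 35.1, 24.1 and 21.2 CPM in WT and 73.2, 24.2, 28.5 and 80.2 CPM in KO libraries. In each population 2 KO libraries were above every WT library and the rest overlapped them. The fitted values were 1.38 in LT-HSC (SE 0.836), 1.35 in MPP2 (SE 0.632, adjusted p = 0.742) and 0.59 in MPP3 (SE 0.621). Without the KO libraries numbered 1 they were 0.61, 0.26 and 0.37.

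Ifit2, which shares the RNA-binding fold, was at 20.1 and 37.8 CPM in WT LT-HSC and at 69.3, 36.2 and 38.6 CPM in KO LT-HSC. The KO 2 level lay below WT 2, and the fitted value was 0.73 (SE 0.385, adjusted p = 1), or 0.37 without KO 1. Its MPP2 levels were 51.3, 28.4, 32.8 and 22.3 CPM in WT and 46.0, 33.7, 33.9 and 36.0 CPM in KO libraries. MPP3 levels were 32.6, 24.7, 23.4 and 26.8 CPM in WT and 43.1, 20, 26.7 and 31.0 CPM in KO libraries, and the groups overlapped in both populations. Ifit3 was at 3.72 and 4.59 CPM in WT LT-HSC and at 35.2, 5.52 and 14.9 CPM in KO LT-HSC, with no overlap and a fitted value of 2.15 (SE 1.47). In MPP2 Ifit3 was at 1.65, 0.98, 0.821 and 3.40 CPM in WT and at 26.3, 0.566, 2.52 and 0.677 CPM in KO libraries. Its fitted value there was 2.13, KO 1 was far above the rest, and the other KO libraries lay within or below the WT range. In MPP3 Ifit3 was at 11.3, 2.41, 1.13 and 1.41 CPM in WT and at 22.8, 4.61, 2.15 and 22.4 CPM in KO libraries, and KO 1 and KO 4 lay above every WT library.

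Ifit3b had 0 counts in all 4 WT MPP2 libraries. In the KO MPP2 libraries it was at 8.84, 0.688, 0.00 and 0.713 CPM, so that KO 1 held most of the signal and KO 3 had none. Over the group, the 174 counts in KO MPP2 were 62.3-fold higher than a floor of 3 counts in the WT group as a whole. The edgeR adjusted p was 0.738, and DESeq2 gave 0.000879. Over the alternative settings the adjusted p ran from that value to 0.93. Elsewhere Ifit3b was at 1.05 and 2.79 CPM in WT LT-HSC, at 8.01, 2.64 and 0.434 CPM in KO LT-HSC, at 1.26, 2.90, 0.0352 and 0.109 CPM in WT MPP3, and at 4.43, 0.341, 1.35 and 4.51 CPM in KO MPP3. The values of WT MPP3 4 and WT MPP3 3 were near or under the limit of 3 counts.

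The oligoadenylate synthetases make the messenger that switches on RNase L, and the Oasl genes are their relatives. Oasl1, which limits translation of Irf7, was at 10.8 and 6.87 CPM in WT LT-HSC and at 24.3, 13.9 and 24.3 CPM in KO LT-HSC. All 3 KO libraries were above both WT libraries, with a fitted value of 1.24 (2.36-fold, SE 0.436, adjusted p = 1) that was 1.11 without KO 1. In MPP2 it was at 4.72, 7.75, 6.17 and 6.42 CPM in WT and 9.43, 13.5, 15.2 and 11.7 CPM in KO libraries. Every KO MPP2 library was above every WT library, with a fitted value of 0.99 (1.99-fold, SE 0.328, adjusted p = 0.738). In MPP3 it was at 19.8, 14, 12.1 and 10.1 CPM in WT and 26.9, 9.85, 29.4 and 21.7 CPM in KO libraries. KO 2 was the lowest of the 8 and the other 3 KO libraries were the highest, with a fitted value of 0.65 (SE 0.325).

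Oas2 was at 16.9 and 6.32 CPM in WT LT-HSC and 23.5, 15.0 and 12.2 CPM in KO LT-HSC, which overlapped. Its MPP2 levels of 7.13, 9.18, 5.48 and 2.89 CPM in WT and 18.1, 10, 5.89 and 4.67 CPM in KO libraries overlapped too. The MPP3 levels were 16.1, 13.9, 12.1 and 15.7 CPM in WT and 51.5, 40.7, 16.5 and 24.2 CPM in KO libraries. Every KO MPP3 library was above every WT library, KO 3 by a small margin. The fitted value in MPP3 was 1.2 (2.30-fold, SE 0.457, adjusted p = 0.88), and it was 1.60 within numbers 1 and 2 and 0.55 within numbers 3 and 4. Over the 6 genes of this role, the fitted values were above 0 for 6 (LT-HSC), 4 (MPP2) and 6 (MPP3), with medians of 0.39, 0.47 and 0.56. The related gene Oasl2 had fitted values of 0.28, -0.04 and 0.23.

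Mx1 and Mx2 encode dynamin-like GTPases that trap viral components. Mx1 was at 1.19 and 13.1 CPM in WT LT-HSC and at 37.5, 10.7 and 17.2 CPM in KO LT-HSC. The MPP2 levels were 3.87, 1.59, 0.00 and 0.00 CPM in WT and 8.91, 6.51, 0.00 and 0.0357 CPM in KO libraries, with the libraries numbered 3 and 4 near or at 0 in both genotypes. Among MPP3 libraries it was at 4.56, 8.85, 3.87 and 8.54 CPM in WT and 20.6, 23.4, 9.36 and 31.3 CPM in KO libraries, with every KO library above every WT library. The fitted values were 1.61 (SE 1.80), 1.49 (SE 1.37) and 1.71 (SE 1.35), and Mx2 had 1.37, 0.34 and 1.08. These SEs are as large as the differences for Mx1 in LT-HSC and near them in MPP2 and MPP3.

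Among the sensors of nucleic acid, Ddx58, which encodes the RNA helicase RIG-I, was at 58.8 and 68.7 CPM in WT LT-HSC and at 89.8, 60.2 and 69.3 CPM in KO LT-HSC. Among MPP2 libraries it was at 43.7, 53.4, 26.4 and 32.8 CPM in WT and 123, 56.8, 41.6 and 47.8 CPM in KO libraries. The KO MPP2 libraries 1 and 2 were above every WT library and the rest overlapped, with a fitted value of 0.78 (1.72-fold, SE 0.318, adjusted p = 0.738) that was 0.30 without KO 1. MPP3 levels of 82.3, 79.0, 43.6 and 58.6 CPM in WT and 107, 85.7, 54.9 and 78.1 CPM in KO libraries overlapped. The fitted values of Ifih1, the helicase MDA5, were 0.41, 0.24 and 0.33. Zbp1, a sensor of left-handed nucleic acid, was at 14.2, 14.3, 15.0 and 23.4 CPM in WT MPP2 and 126, 26.7, 6.28 and 5.24 CPM in KO MPP2 libraries. In MPP3 it was at 17.2, 9.79, 6.94 and 5.03 CPM in WT and 67.8, 14.8, 21.1 and 13.4 CPM in KO libraries. Its highest level in both populations was in KO 1, and the summed markers of B and plasma cells were also highest in those libraries, whose part in these values was not tested.

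Dhx58 encodes LGP2, a helicase that tunes both sensors, and Eif2ak2 the kinase PKR that halts translation. Dhx58 had fitted values of 0.21, -0.03 and 0.62, and Eif2ak2 had 0.32, -0.01 and 0.26. The ADP-ribosylation genes encode the PARP9 and DTX3L pair and the transferases PARP12 and PARP14. All 4 had fitted values above 0 in LT-HSC and MPP3 and 3 had them in MPP2, with medians of 0.17, 0.16 and 0.38.

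The guanylate binding proteins and immunity-related GTPases, which are induced above all by type II interferon and act on vacuoles that hold microbes, gave smaller values. Their medians of 0.18 (LT-HSC), -0.19 (MPP2) and 0.08 (MPP3) were below those of the Ifit genes, at 1.16, 1.74 and 0.95, and no test was made between the roles. Without the KO libraries numbered 1 the medians were -0.35, -0.45 and -0.03 for the GTPases and 0.49, 0.14 and 0.66 for the Ifit genes, so that the Ifit value in MPP2 rested on KO MPP2 1. Gbp2 was at 96.6 and 120 CPM in WT LT-HSC and at 101, 81.2 and 40.5 CPM in KO LT-HSC. It was at 67.1, 55.9, 55.1 and 78.3 CPM in WT MPP2 and at 48.5, 61.3, 31.2 and 15.9 CPM in KO MPP2 libraries. The groups overlapped in both, and the fitted values of -0.55, -0.71 and -0.37 were the lowest of the 48 genes in each population. Ifi47, the most abundant of this role, was at 343, 226, 352 and 513 CPM in WT MPP2 and 297, 331, 324 and 302 CPM in KO MPP2, at 250 and 266 CPM in WT LT-HSC and 378, 309 and 182 CPM in KO LT-HSC, and at 286, 265, 254 and 215 CPM in WT MPP3 and 323, 171, 333 and 330 CPM in KO MPP3. Its fitted values were 0.16, -0.19 and 0.18. Iigp1 was at 671 CPM in KO LT-HSC 1 and at 274, 179, 203 and 65.7 CPM in the other LT-HSC libraries.

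Of the other effectors, Bst2 was at 92.2 and 79.4 CPM in WT LT-HSC and at 95.6, 112 and 94.3 CPM in KO LT-HSC, each KO library above both WT libraries. In MPP2 it was at 78.2, 91.5, 76.0 and 93.9 CPM in WT and 121, 130, 71.7 and 83.0 CPM in KO libraries, which overlapped. The MPP3 levels were 89.2, 92.8, 107 and 84.8 CPM in WT and 146, 127, 125 and 131 CPM in KO libraries, all above the WT libraries. The fitted value in MPP3 was 0.50 (1.41-fold, SE 0.169, adjusted p = 0.88), and it was 0.57 within numbers 1 and 2 and 0.41 within numbers 3 and 4. Bst2 is also expressed by plasmacytoid dendritic cells, whose 8 markers, Bst2 among them, summed to 99.1 to 116 CPM in KO LT-HSC, 160 to 582 CPM in KO MPP3 and 126 to 182 CPM in WT MPP3, and whose part in the level of Bst2 was not tested.

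Cmpk2, a mitochondrial nucleotide kinase that lies beside Rsad2, was at 28.8, 17.0, 17.2 and 17.2 CPM in WT MPP2 and at 27.7, 43.2, 44.9 and 46.8 CPM in KO MPP2 libraries. KO 2, 3 and 4 were above every WT library and KO 1 was below WT 1, with a fitted value of 1.02 (2.03-fold, SE 0.320, adjusted p = 0.738) that was 1.4 within numbers 3 and 4 and 0.62 within numbers 1 and 2. In LT-HSC it was at 41.8 and 38.0 CPM in WT and 65.3, 44.0 and 23.8 CPM in KO libraries, and in MPP3 at 38.2, 24.4, 26.1 and 15.7 CPM in WT and 30.1, 28.1, 44.1 and 54.4 CPM in KO libraries, both with overlap. Rsad2, or viperin, which makes a chain-terminating nucleotide, had fitted values of 0.31, 0.28 and 0.53. Lgals3bp was at 363 and 288 CPM in WT LT-HSC and 306, 333 and 388 CPM in KO LT-HSC, and at 231, 228, 273 and 220 CPM in WT MPP2 and 308, 275, 257 and 258 CPM in KO MPP2. MPP3 levels were 246, 244, 295 and 263 CPM in WT and 320, 87.1, 333 and 406 CPM in KO libraries, with KO 2 far below the rest. Ifi27 was at 189 and 126 CPM in WT LT-HSC and 181, 153 and 94.0 CPM in KO LT-HSC, and at 176, 169, 113 and 188 CPM in WT MPP2 and 189, 151, 145 and 71.3 CPM in KO MPP2. MPP3 levels of Ifi27 were 287, 261, 155 and 248 CPM in WT and 261, 173, 285 and 157 CPM in KO libraries, and the groups overlapped in every population.

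The libraries numbered 1 stood apart within the KO groups. KO LT-HSC 1 held the highest level of the 5 LT-HSC libraries for 36 of the 48 genes, against 23.5% of all genes. KO MPP2 1 held the highest of 8 for 24 genes, against 20.1% of all genes, and KO MPP3 1 for 21, against 10.7%. Of the WT libraries numbered 1, WT MPP2 1 held it for 11 (15.4% of all genes) and WT MPP3 1 for 8 (12.7%). The 48 genes summed to 7257 CPM in KO LT-HSC 1 and to 3789 to 4510 CPM in the other 4 LT-HSC libraries. The median deviation of the 48 genes from their means was 0.90 in KO LT-HSC 1, 0.28 in KO MPP2 1 and 0.66 in KO MPP3 1 on the log2 scale, and 0.14, -0.08 and 0.42 in the WT libraries numbered 1.

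Markers of B and plasma cells, neutrophils and monocytes were low in the KO LT-HSC libraries. Markers of other cells were high in some of the MPP libraries numbered 1, and the B and plasma cell marker Jchain also in WT MPP2 2 and KO MPP2 2. In the KO LT-HSC libraries the B and plasma cell markers summed to 37.0 to 68.2 CPM, the 7 neutrophil markers to 6.77 to 58.3 CPM with 3 at 0 in all 3 libraries, and the 9 monocyte and macrophage markers to 8.84 to 30.3 CPM, highest in KO LT-HSC 1. Plasmacytoid dendritic cell markers summed to 99.1 to 116 CPM in KO and 80.1 to 93.8 CPM in WT LT-HSC. Erythroid markers summed to 27.3 to 958 CPM in KO and 243 to 263 CPM in WT LT-HSC. In KO MPP2 1 the monocyte and macrophage markers summed to 3626 CPM and the plasmacytoid dendritic cell markers to 1137 CPM, and in KO MPP3 1 to 1355 and 582 CPM. The part of those cells in the levels of the 48 genes in KO MPP2 1 and KO MPP3 1 was not tested. Among the MPP2 libraries the median deviation was -0.43 to 0.28 in the libraries numbered 1 and 2 and -0.62 to -0.46 in those numbered 3 and 4, in both genotypes.

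**Figure D4:**
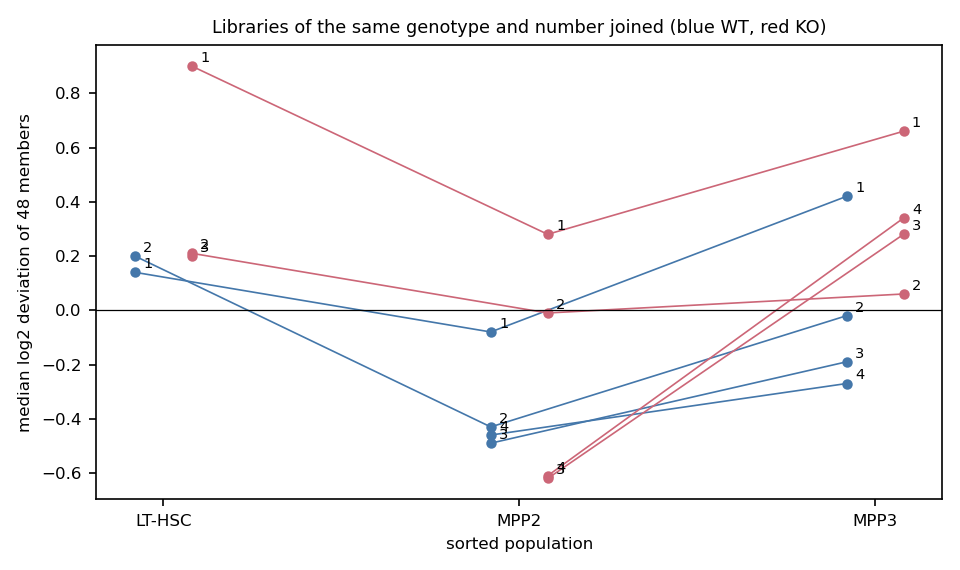
Median over the 48 genes of the log2 deviation from each gene's mean, for each library by population, with lines that join libraries of the same genotype and replicate number (KO LT-HSC 3 is not joined). The KO libraries numbered 1 are the highest of their genotype in each population, and MPP2 is the lowest population for every joined line.

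With each genotype and number taken as a mouse, MPP2 and MPP3 counts were also summed into 4 WT and 4 KO sums. By edgeR 0 of the 48 genes passed the threshold, against 0.0112% of the 17912 genes tested, and DESeq2 also called 0. At an unadjusted p under 0.05, 10 genes were higher in KO, against 1.91% of all genes, and 0 were lower, against 2.37%. The fitted value was above 0 for 38 of 48 genes (51.9% of all genes) with a median of 0.28, and for 35 with a median of 0.17 without the KO sum numbered 1. Without the sums that hold the 3 libraries in which 1 gene took over 5% of counts, it was above 0 for 28 with a median of 0.10. Mx1 was at 4.19, 5.46, 1.82 and 4.46 CPM in WT sums 1 to 4 and 15.8, 13.1, 4.59 and 15.3 CPM in KO sums. KO sum 3 lay below WT sum 2, and the fitted value was 1.62 (3.06-fold, SE 0.452, adjusted p = 0.995). Isg15 was at 6.66, 6.11, 3.88 and 5.93 CPM in WT and 15.9, 9.97, 7.10 and 14.4 CPM in KO sums.

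Every KO sum of Isg15 was above every WT sum, as for Trim25 and Bst2 and for 1.19% of all genes, and the fitted value was 1.07 (2.10-fold, SE 0.309, adjusted p = 0.995). Oasl1 was at 12.2, 11.0, 8.82 and 8.18 CPM in WT and 19.8, 11.6, 21.7 and 16.3 CPM in KO sums, with KO sum 2 between WT sums 1 and 2. Its fitted value was 0.79 (SE 0.246), and it was 0.44 within numbers 1 and 2 and 1.17 within numbers 3 and 4. Cmpk2 was at 33.3, 20.8, 21 and 15.9 CPM in WT and 29.0, 35.8, 43.2 and 49.4 CPM in KO sums, with overlap at number 1. Its fitted value was 0.79 (SE 0.259), and it was 0.27 and 1.34 within the same pairs of numbers.

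The KO effect itself was compared between populations by an interaction term. By edgeR 0 of the 48 genes differed in each of the 3 comparisons of KO effects, against 0% of all genes, and DESeq2 gave 0 as well. At an unadjusted p under 0.05, Ifit3b, with 0 counts in WT MPP2, was the 1 gene of the 48 in both comparisons that involve MPP2, and 0 genes passed between LT-HSC and MPP3. At that cut the KO effect was higher in LT-HSC than in MPP2 for 1.35% of all genes and lower for 2.25%. The shares were 2.87% and 1.6% for MPP2 against MPP3, and 1.22% and 1.25% for LT-HSC against MPP3. A difference in KO effect between populations was not detectable for these genes with this number of libraries.

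The next comparisons were between the populations, within WT and within KO mice. Uba7 was the gene that passed the threshold in LT-HSC against both progenitor classes. It was at 238 and 190 CPM in WT LT-HSC and at 188, 186 and 210 CPM in KO LT-HSC. The MPP2 levels were 82.3, 77.1, 94.4 and 62.4 CPM in WT and 78.5, 85.6, 90.9 and 80.0 CPM in KO libraries. Among MPP3 libraries it was at 90.7, 103, 97.8 and 106 CPM in WT and 107, 126, 65.5 and 78.0 CPM in KO libraries. All 5 LT-HSC libraries, of either genotype, were above all 16 progenitor libraries.

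Uba7 was 2.71-fold higher in LT-HSC than in MPP2 of WT mice (log2 1.44, SE 0.208, adjusted p = 0.00584) and 2.32-fold higher in KO mice (log2 1.22, SE 0.190, adjusted p = 0.00208). Against MPP3 it was 2.15-fold higher in WT mice (log2 1.11, SE 0.209, adjusted p = 0.0111) and 2.07-fold higher in KO mice (log2 1.05, SE 0.189, adjusted p = 0.00352). In WT mice, where 2 LT-HSC libraries carry the comparison, the adjusted p against MPP2 was 0.168 without WT LT-HSC 1 and 0.0548 without WT LT-HSC 2, and against MPP3 it was 0.283 without WT LT-HSC 1 and 0.0596 with the mouse as a block. When just the pair of groups compared was fitted, the adjusted p was 0.0582 against MPP2 in WT mice and 0.0814 against MPP3 in KO mice, where it was 0.136 within numbers 1 and 2. Uba7 was the 1 gene of the 48 called in LT-HSC against MPP2 of WT mice, where 0.63% of all genes were called, and the 1 called in LT-HSC against MPP3, where 1.1% were. At an unadjusted p under 0.05, 11 genes were higher and 0 lower in LT-HSC than in MPP2 of WT mice (7.08% and 5.92% of all genes), and 5 were higher and 0 lower than in MPP3 (5.52% and 3.68%). In KO mice Uba7 was also the 1 gene called in LT-HSC against MPP3 (2.64% of all genes), joined by Ifih1 without KO MPP3 2 (603 of 20909 genes). By edgeR the other genes of the ISG15 system were not called in these comparisons. DESeq2 called Trim25 lower in LT-HSC than in MPP3 of KO mice, where it called 1377 of 21100 genes. Trim25 had fitted values of 0.19 and -0.23 for LT-HSC against MPP2 in WT and KO mice, and Usp18 had 0.09 and 0.26.

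In KO mice, 2 of the 48 genes were called in LT-HSC against MPP2 (1.81% of all genes), Uba7 and Oasl2, an oligoadenylate synthetase-like protein. Oasl2 was at 260, 131 and 161 CPM in KO LT-HSC and at 79.6, 83.3, 54.6 and 34.1 CPM in KO MPP2. The groups did not overlap, and the level was 2.93-fold higher in LT-HSC (log2 1.55, SE 0.372, adjusted p = 0.0374). The call was lost without KO LT-HSC 1 (adjusted p = 0.211), KO LT-HSC 3 (0.075), KO MPP2 2 (0.0535), KO MPP2 3 (0.109) or KO MPP2 4 (0.104). It was also lost when KO LT-HSC and KO MPP2 were fitted alone (0.101). Oasl2 was at 167 and 135 CPM in WT LT-HSC, 99.8, 77.4, 36.7 and 44.5 CPM in WT MPP2, 157, 125, 108 and 88.9 CPM in WT MPP3 and 195, 77.6, 123 and 165 CPM in KO MPP3. In WT mice LT-HSC was also above every MPP2 library, with log2 1.23 (SE 0.409, adjusted p = 0.182). With the mouse as a block, 5 genes were called in KO mice, Gbp7, Ifi44, Oasl2, Rtp4 and Uba7, and without KO MPP2 1 also 5, Ifi44, Ifit1, Oasl2, Rsad2 and Uba7. Over all genes, 424 of 21100 were called with that block and 474 of 20825 without KO MPP2 1.

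Between MPP2 and MPP3 of KO mice, 1 of the 48 genes was called (0.886% of all genes), Dhx58. It was at 24.9, 38.1, 16.8 and 24.7 CPM in KO MPP2 and at 59.0, 73.6, 49.5 and 76.2 CPM in KO MPP3, with no overlap. The level in MPP2 was 2.47-fold lower (log2 -1.31, SE 0.282, adjusted p = 0.0324). The call was lost without KO MPP2 1 (adjusted p = 0.0548), KO MPP2 3 (0.137), KO MPP2 4 (0.118), KO MPP3 1 (0.0606), KO MPP3 2 (0.0727) or KO MPP3 4 (0.0827). It was also lost when both KO groups were fitted alone (0.123). In WT mice it was at 29.4, 34.2, 28.4 and 14.5 CPM in MPP2 and 44.5, 37.0, 55.2 and 31.4 CPM in MPP3, which overlapped, with log2 -0.66 (SE 0.278, adjusted p = 0.3). In LT-HSC it was at 33.5 and 46.9 CPM in WT and 57.8, 42.8 and 38.9 CPM in KO libraries. With the mouse as a block, 5 genes were called lower in MPP2, Dhx58, Ifi44, Oas2, Parp14 and Rtp4, and without the 3 libraries in which 1 gene took over 5% of counts 0 were. Without KO MPP3 3 the calls were 3, Dhx58, Oas2 and Stat2, and without KO MPP2 1 the single call was Oas2. Over all genes, 273 of 21100 were called with the block. The calls were 58 of 20499 without the 3 libraries and 222 of 20992 without KO MPP3 3.

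In WT mice 0 of the 48 genes were called between MPP2 and MPP3 by edgeR (1.2% of all genes). At an unadjusted p under 0.05, 14 genes were lower in MPP2, against 6.29% of all genes, and 1 was higher, against 7.25%. DESeq2 called 4 genes lower in MPP2, Ifit3b, Irf9, Oasl1 and Stat2, and the mouse as a block gave 2, Irf9 and Rtp4. Over all 21100 genes DESeq2 called 913 and the fit with the block 270. Stat2 was at 15.0, 17.5, 18.3 and 18.7 CPM in WT MPP2 and 29.6, 26.6, 30.8 and 32.2 CPM in WT MPP3, with no overlap and a fitted value of -0.78 (SE 0.243, adjusted p = 0.138). Irf9 was at 128, 89.7, 92.5 and 62.3 CPM in WT MPP2 and 179, 159, 143 and 135 CPM in WT MPP3, also with no overlap (log2 -0.73, SE 0.225, adjusted p = 0.133). The groups did not overlap, with MPP2 lower, for 8 genes in WT mice (4.87% of all genes) and 6 in KO mice (3.5% of all genes), among them Stat2, Trim25 and Mx1 in both. The margin of Mx1 was small in both, and in WT mice its nearest levels were equal as rounded here. With MPP2 higher there were 0 in either, against 5.33% and 3.59% of all genes. Without KO MPP2 1, KO MPP3 1 and KO MPP3 2 the KO counts were 27 lower and 3 higher, against 15.1% and 15% of all genes. Without the KO libraries numbered 1 they were 13 and 2, against 8.04% and 9.18%. Ifit3b had 0 counts in WT MPP2, and its folds were taken against a floor of 3 counts in that group as a whole (0.029 CPM). Over the group it was 37.3-fold above this floor in WT MPP3 and 66.8-fold above it in WT LT-HSC. The WT MPP3 libraries 1 to 4 had 31, 83, 1 and 3 counts, so libraries 3 and 4 were at or under the limit of 3 counts per library.

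As a group, the 48 genes lay lowest in MPP2. The fitted value of LT-HSC over MPP2 was above 0 for 42 genes in WT mice (49.5% of all genes) with a median of 0.59, and for 43 in KO mice (46.9%) with a median of 0.73. That of MPP2 over MPP3 was above 0 for 11 genes in WT mice (48%) with a median of -0.40, and for 6 in KO mice (51.3%) with a median of -0.53. With each library left out in turn, the median of LT-HSC over MPP2 ran from 0.50 to 0.69 in WT mice and from 0.41 (without KO LT-HSC 1) to 0.89 (without KO MPP2 1) in KO mice. That of MPP2 over MPP3 ran from -0.55 (without WT MPP2 1) to -0.19 (without WT MPP3 1, with 16 genes above 0) in WT mice and from -0.85 (without KO MPP2 1) to -0.39 (without KO MPP3 1) in KO mice. The KO medians were 0.60 and -0.69 without the KO libraries numbered 1, and without the 3 libraries in which 1 gene took over 5% of counts 0.91 and -0.61. LT-HSC and MPP3 differed little in the median, at 0.09 in WT and 0.08 in KO mice. Over the settings tried, that KO median ran from -0.21 to 0.3. The medians over all genes were between -0.04 and 0.02. The WT and KO comparisons use different libraries, and the sign was the same in both for 40 genes higher in LT-HSC than in MPP2, against 32.7% of all genes higher in both. For MPP2 against MPP3, 36 genes were lower in MPP2 in both genotypes, against 33% of all genes. Without the 3 libraries these counts were 43 and 34, against 36.5% and 30.1% of all genes. Without the KO libraries numbered 1 they were 42 and 36, against 34.1% and 34.8%. In LT-HSC against MPP2 of WT mice, 20 genes had LT-HSC above MPP2 with no overlap (15.3% of all genes), and 9 did in KO mice (7.62% of all genes). The KO count was 24 without the KO libraries numbered 1 and also without the 3 libraries, against 16.6% and 13.2% of all genes. The 5 markers of erythroid cells summed to 631 to 3157 CPM in WT MPP2 and 863 to 2368 CPM in KO MPP2, to 243 to 263 CPM and 27.3 to 958 CPM in LT-HSC, and to 12.9 to 41.8 CPM and 11.8 to 649 CPM in MPP3. Within MPP2 they summed to 631 to 1614 CPM in the libraries numbered 1 and 2 and to 1806 to 3157 CPM in those numbered 3 and 4. The part of erythroid cells in the low levels of MPP2 was not tested.

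The size of these differences varied by role. For LT-HSC over MPP2 the role medians in WT and KO mice were 1.68 and 2.26 for the Mx genes, 1.36 and 0.92 for the Ifit genes, 0.72 and 0.81 for the ADP-ribosylation genes, 0.62 and 0.92 for the GTPases and 0.27 and 0.26 for the ISG15 system. In the same order the KO medians were 2.55, 1.79, 0.60, 0.79 and 0.43 without the KO libraries numbered 1. For MPP2 over MPP3 the GTPases had medians of 0.18 and -0.24, while the Mx genes had -1.56 and -2.05. Iigp1, a GTPase that breaks open pathogen vacuoles, was at 274 and 179 CPM in WT LT-HSC, at 44.0 to 128 CPM in WT MPP2 and at 18.2 to 131 CPM in WT MPP3. Its LT-HSC libraries were above all WT progenitor libraries, and its fitted values of 1.73 over MPP2 and 1.91 over MPP3 did not pass the adjusted threshold. Within the libraries numbered 1 and 2 the median over the 48 genes of LT-HSC over MPP2 was 0.39 in WT and 0.59 in KO mice. Within those numbered 3 and 4 it was 0.82 in KO mice, where LT-HSC was 1 library, KO LT-HSC 3. The median of MPP2 over MPP3 in KO mice was -0.22 within numbers 1 and 2, with 14 genes above 0, and -0.90 within numbers 3 and 4, with 5 above 0. In WT mice it was -0.34 and -0.36. The MPP2 libraries numbered 3 and 4 held 17.3 and 31.3 CPM of Ly6a in WT and 17.5 and 5.74 CPM in KO mice, against 158 to 1429 CPM in those numbered 1 and 2. Ly6a encodes Sca-1, on which the cells were sorted and which interferon is known to induce, and the part of that difference in the levels of the 48 genes was not tested.

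**Figure D5:**
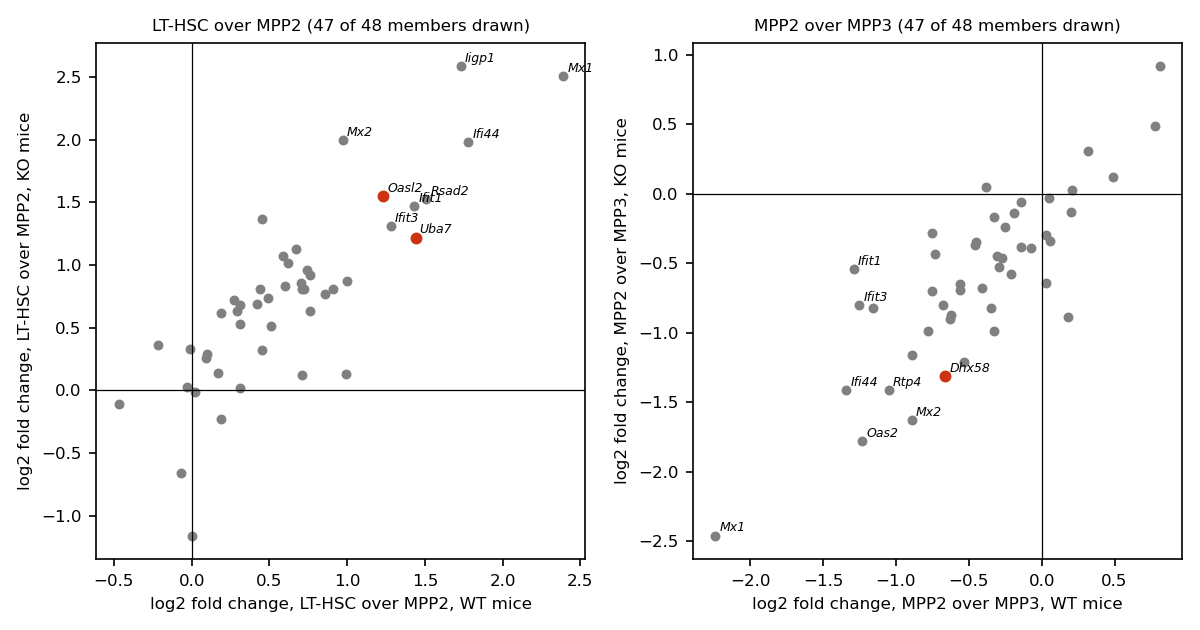
Fitted log2 fold change in WT mice (x axis) against KO mice (y axis) for 47 of the 48 genes, for LT-HSC over MPP2 and for MPP2 over MPP3, with genes called in either genotype in red (Ifit3b is not drawn). Most points lie in the upper right for LT-HSC over MPP2 and in the lower left for MPP2 over MPP3.

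The rest of the pathway was read from lists of related genes. Of the 9 interferon genes on these lists, all found in the table, 0 passed the filter on low counts. They had 14 counts in all 21 libraries together and at most 9 in any library, which were those of Ifna2 in KO LT-HSC 1 (0.323 CPM). Ifng, Ifna1, Ifna4, Ifne and Ifnl2 had 0 counts in all libraries. Interferon genes outside the list were not looked up. Of the 14 receptor and signalling genes tested, 0 were called between KO and WT in any population. Their fitted values were above 0 for 2 (LT-HSC), 5 (MPP2) and 3 (MPP3), with medians of -0.24, -0.11 and -0.21.

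Of 7 other IRF factors and 10 genes of interferon induction, 0 were called between KO and WT in any population. Of 40 other interferon-induced genes tested, 0 were called between KO and WT, and the fitted value was above 0 for 19 (LT-HSC), 24 (MPP2) and 34 (MPP3), with medians of -0.02, 0.06 and 0.20. Between populations, Ifnar2, a chain of the type I receptor, was lower in LT-HSC than in MPP3 of KO mice (log2 -1.29, SE 0.321, adjusted p = 0.0342). Il10rb, which the receptor for type III interferon shares, was lower as well (log2 -1.19, SE 0.286, adjusted p = 0.0276). Irf8, a factor of myeloid and dendritic lineages, was at 1.74 ± 1.58 CPM (SD, n = 3) in KO LT-HSC and 86.6 ± 47.0 CPM (SD, n = 4) in KO MPP3, with an edgeR adjusted p = 0.0234. Stat3 was lower in MPP2 than in MPP3 of WT mice (log2 -0.83, SE 0.172, adjusted p = 0.0256), and Trafd1, which restrains the response, was lower in MPP2 than in MPP3 of KO mice (log2 -0.74, SE 0.166, adjusted p = 0.0366). For LT-HSC over MPP2, the 40 other interferon-induced genes had fitted values above 0 for 33 in WT and 32 in KO mice, with medians of 0.62 and 0.50.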

How the data were processed

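RNA from sorted mouse LT-HSC, MPP2 and MPP3 was sequenced in 21 libraries of 6 groups. The authors deposited raw counts per gene in 1 table. STAR and mm10 are named per the submitters' processing notes, while the STAR version, counting program, annotation release and strand setting are not given there. Of 54446 identifiers, 54409 matched the GENCODE annotation used here for names, positions and lengths and 37 did not. No 2 libraries were identical.

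Genes were kept by filterByExpr (minimum count 10), which left 21100, and tested with edgeR 4.0.16 (TMM, robust quasi-likelihood fit of all 21 libraries, limma 3.58.1, R 4.3.3) with Benjamini-Hochberg adjustment over all genes tested and a threshold of 0.05. The standard error is the log2 fold change divided by the root of the F statistic. Summed counts were fitted alone, over 17912 genes. "Called" means past the adjusted threshold, and "no overlap" that every library of a group lay above every library of the other. The procedure was tested on simulated counts. DESeq2 1.42.0, other size factors, no filter on low counts, blocks for number and mouse, the compared groups alone, splits by number and each library left out were alternatives. Leaving out the 3 libraries in which 1 gene took over 5% of counts or the KO libraries numbered 1, and counting KO LT-HSC 3 as number 4, were chosen after seeing the data.

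The 48 genes, their roles and the other lists were chosen with earlier results of these data known. Values in every library are given for Irf7, Irf9, Stat2, Usp18, Isg15 and Ifit1, for the 4 genes of smallest p in each comparison of KO with WT, for genes called between populations and for the 4 genes highest per length; other genes named with levels were picked after their values were seen.

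Deviations from the group means of WT and KO libraries with the same number correlated at 0.207 to 0.282 in MPP2, above the 0.1 taken as pairing in all 4 pairs, and at 0.0807 to 0.141 in MPP3 and 0.039 to 0.0417 in LT-HSC. By that measure the numbers pair MPP2 libraries. The number also goes with sex: in the 6 libraries numbered 2, 1 per group, Ddx3y was at 108 to 177 CPM and Xist at 0.0569 to 4.49 CPM, and in the other 15 at 0 to 0.194 and 113 to 414 CPM. In MPP2 the fit with the number as a block called 0 of the 48 genes, as without it.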

Additional observations from a re-analysis of the deposited data

Results flagged for a closer look

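Dixon's test at the 95% level was run on the levels of the genes given in every library, in the groups of 4, and singled out 1 library in 3 of 84 such groups (3.57%), where chance singles out about 1 in 20. Cmpk2 was at 28.8 CPM in WT MPP2 1 and at 17.0 to 17.2 CPM in the other WT MPP2 libraries. Ifit3b was at 8.84 CPM in KO MPP2 1 and at 0 to 0.713 CPM in the other KO MPP2 libraries. Ifi47 was at 171 CPM in KO MPP3 2 and at 323 to 333 CPM in the other KO MPP3 libraries. KO MPP2 1 and KO MPP3 2 are among the 3 libraries in which 1 gene took over 5% of counts, and the part of that in these values was not tested.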

How the results depend on the processing

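Of the values computed again under alternatives, 1024 stayed on the same side of the threshold or within the spread, 50 moved, 22 reversed, 26 lost and 1 gained a call; for those below the cause was not tested. The count of called genes with KO against WT was 0 in LT-HSC, MPP3 and the sums under each alternative in which calls were counted (within numbers only values were computed), and in MPP2 it was 1 by DESeq2. For LT-HSC against MPP2, LT-HSC against MPP3 and MPP2 against MPP3, DESeq2 called 2, 1 and 4 genes in WT and 7, 2 and 6 in KO mice. Of all 21100 genes it called 849, 635 and 913 in WT and 1245, 1377 and 858 in KO mice. A replicate block by number gave counts of 1, 1 and 4 in WT and 7, 2 and 7 in KO mice, or 1, 1 and 6 and 7, 2 and 8 with KO LT-HSC 3 as number 4. Both forms of this block also called more of all genes than the fit without a block, in each of these comparisons. The higher counts of the 48 genes are thus not particular to them. With the mouse as a block the counts of the 48 genes were 1, 0 and 2 in WT and 5, 2 and 5 in KO mice. Of all 21100 genes this block called 424, 638 and 273 in KO mice. In WT mice it called 168 for LT-HSC against MPP3 and 270 for MPP2 against MPP3. The median of LT-HSC over MPP2 in WT was 0.41, 0.40 and 0.38 under these blocks, and 0.39 within numbers 1 and 2. With only the groups compared the counts were 0, 1 and 0 in WT and 1, 0 and 0 in KO mice. Over all genes 46 were called for LT-HSC against MPP2 of WT mice, and 116, 445 and 6 in the KO comparisons. Without the 3 libraries in which 1 gene took over 5% of counts the counts of the 48 genes were 8, 2 and 0 in KO mice. Over all 20499 genes they were 933, 635 and 58, and Stat2 in MPP3 was -0.23. Without the KO libraries numbered 1 the counts of the 48 genes were 1, 1 and 0, and Irf9 in LT-HSC was -0.15. Of all 20499 genes, 135 were then called for LT-HSC against MPP2 and 63 for MPP2 against MPP3 of KO mice. Within numbers 1 and 2 Stat2 in MPP2 was 0.24. Within numbers 3 and 4 the KO over WT values in MPP2 were -0.09 for Irf7, -0.04 for Usp18, -0.27 for Isg15 and -0.33 for Ifit1. In MPP3 they were 0.08 for Irf9 and -0.32 for Stat2, and in the sums -0.31 for Stat2. The median there was -0.90 for MPP2 over MPP3 in KO mice and -0.53 for the difference in KO effect between MPP2 and MPP3. In sums without those that hold the 3 libraries, Irf9 was -0.04 and Stat2 -0.22. With each library left out in turn, the counts ran from 0 to 1 for LT-HSC against MPP2 and against MPP3 in WT, and from 1 to 5, 1 to 2 and 0 to 3 for the KO comparisons in the order above. Irf9 ran from -0.15 to 0.28 in LT-HSC, -0.19 to 0.07 in MPP3 and -0.06 to 0.19 in the sums. Stat2 ran from -0.12 to 0.58 in LT-HSC, -0.14 to 0.09 in MPP2, -0.12 to 0.30 in MPP3 and -0.09 to 0.19 in the sums. Levels of Mx1 and Ifit3b at or under 3 counts limit what their folds can show.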
